A study of Mus musculus with 18 samples.

Results

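The subject is the set of genes whose difference between long-term hematopoietic stem cells (LT-HSC) and multipotent progenitors (MPP) was not the same in fetal liver (FL) as in adult bone marrow (BM). Members were taken from an interaction contrast over all genes, (LT-HSC - MPP in FL) - (LT-HSC - MPP in BM) on the log2 scale, which used 12 of the 18 arrays of the study, 3 in each of 4 groups. Of 19505 genes tested, 106 (0.543%) had an adjusted p under 0.05 in limma's moderated test, corrected for all genes by Benjamini and Hochberg, and are named here as called. A positive contrast means that LT-HSC stood higher relative to MPP in FL than in BM, which held for 42 called genes (0.215% of all), and a negative one the reverse, which held for 64 (0.328%).

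All cells came from C57Bl/6J mice. The FL LT-HSC and FL MPP groups were sorted from livers of E13.5 embryos, and the BM LT-HSC and BM MPP groups from marrow of adults aged 3 to 12 months. Every group was drawn from the LSK fraction, which lacks lineage markers and carries Sca-1 and Kit, and Cd150 and Cd48 separated the stem cells from the progenitors; how the gates were set was not analysed here. No treatment is named in the titles, and the arrays of a group carry the letters a, b and c. The free-text descriptions speak of transplanted marrow, of sgEzh2 for FL LT-HSC a and FL MPP a and b, and of sgLuc for the other 9 arrays, against the titles, which were used. Without the arrays so described, which leaves FL MPP c as the lone FL MPP array, limma called 3 of the 106 genes, Cdh17, Gpr174 and Sh2b2, and no others. All 106 kept their sign there and had an unadjusted p under 0.05, as did 702 genes in all, 290 higher and 412 lower; most arrays are shared with the fit that chose them. Whether the 3 arrays of a group stand for different animals is not in the labels, and p-values then measure only the spread between these arrays, which may be technical. The Y-linked genes Kdm5d and Uty averaged 7.75 and 7.15 in FL LT-HSC but 4.52 and 4.0 in BM LT-HSC, so the sex of the donors and the stage cannot be told apart in a comparison of FL with BM. They averaged 6.95 and 7.16 in FL MPP and 4.54 and 3.93 in BM MPP. Their contrasts were 0.82 ± 0.28 (limma adjusted p = 0.332) and -0.09 ± 0.23 (adjusted p = 0.998) and did not pass.

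LT-HSC sit at the top of blood formation: they self-renew and give every blood lineage for life, whereas MPP keep the lineages but have little self-renewal. The fetal liver is where stem cells expand before birth, and in the adult marrow most of them are quiescent. Stem cells leaving this state are known to switch on myeloid and lymphoid genes step by step, a process called lineage priming. The contrast asks whether that step between stem cell and progenitor carried the same genes in both stages.

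Called contrasts ranged from 0.77 to 5.0 in size on the log2 scale, a ratio of ratios between 1.70 and 32.0, and 96 of the 106 were at least 1. Over all genes the median contrast was 0.00085, the median size 0.156 and the median standard error 0.24. The last genes inside the threshold were Gm1966 (adjusted p = 0.0448), Kcnip3 (0.0452) and Them7 (0.0497), and the first outside were Cd180 (0.0507), Tmem74 (0.0514) and Myct1 (0.0514). The LT-HSC to MPP difference had opposite signs in the 2 stages for 58 called genes (54.7%, against 32.6% of all genes). The contrast subtracts 1 of these differences from the other, so choosing genes by it favours opposite signs, and the excess is no separate result. The difference had the same sign and was larger in BM for 27, and the same sign and larger in FL for 21.

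**Figure D1:**
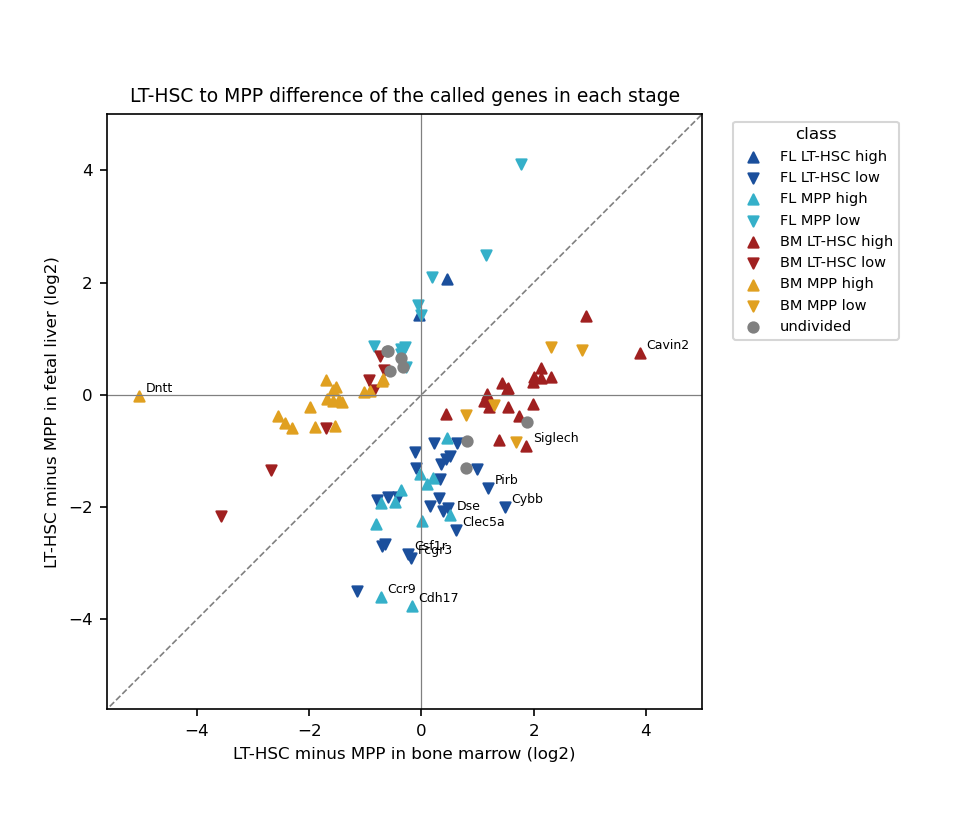
Log2 difference LT-HSC minus MPP of the 106 called genes, in bone marrow on the x axis and in fetal liver on the y axis, with marker and colour giving the class of the gene. The dashed line marks equal differences: Dntt lies far to the left at about no difference in FL, Cdh17 and Ccr9 lie low at little difference in BM, and 58 genes lie in the quadrants of opposite sign.

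To say which population carried each contrast, the 4 group means of a gene were compared, and its driver was the group without which the other 3 means lay closest together. The driver was called clear where all 3 of its arrays lay outside the 9 arrays of the other groups, on the high or on the low side. The other groups need not be alike: Cybb, with FL LT-HSC as its low driver at 6.61, averaged 8.62 in FL MPP, 11.31 in BM LT-HSC and 9.81 in BM MPP. By this driver rule 98 of the 106 called genes had 1 clear driver, against 17% of all genes. The rule used the same 12 arrays as the contrast that chose the genes, which favours a clear driver. The excess over all genes, here and in each class below, is therefore no separate result. BM LT-HSC drove 27, FL LT-HSC 26, BM MPP 23 and FL MPP 22, so no population carried most of the list, and 8 genes had no clear driver. The side differed between the groups: FL LT-HSC stood out as low for 24 genes and as high for 2, whereas BM LT-HSC stood out as high for 20 and low for 7, and BM MPP as high for 18 and low for 5. FL MPP was high for 12 and low for 10. A clear driver and its side fix the sign of a contrast, so that sign is no separate result within a class.

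**Figure D2:**
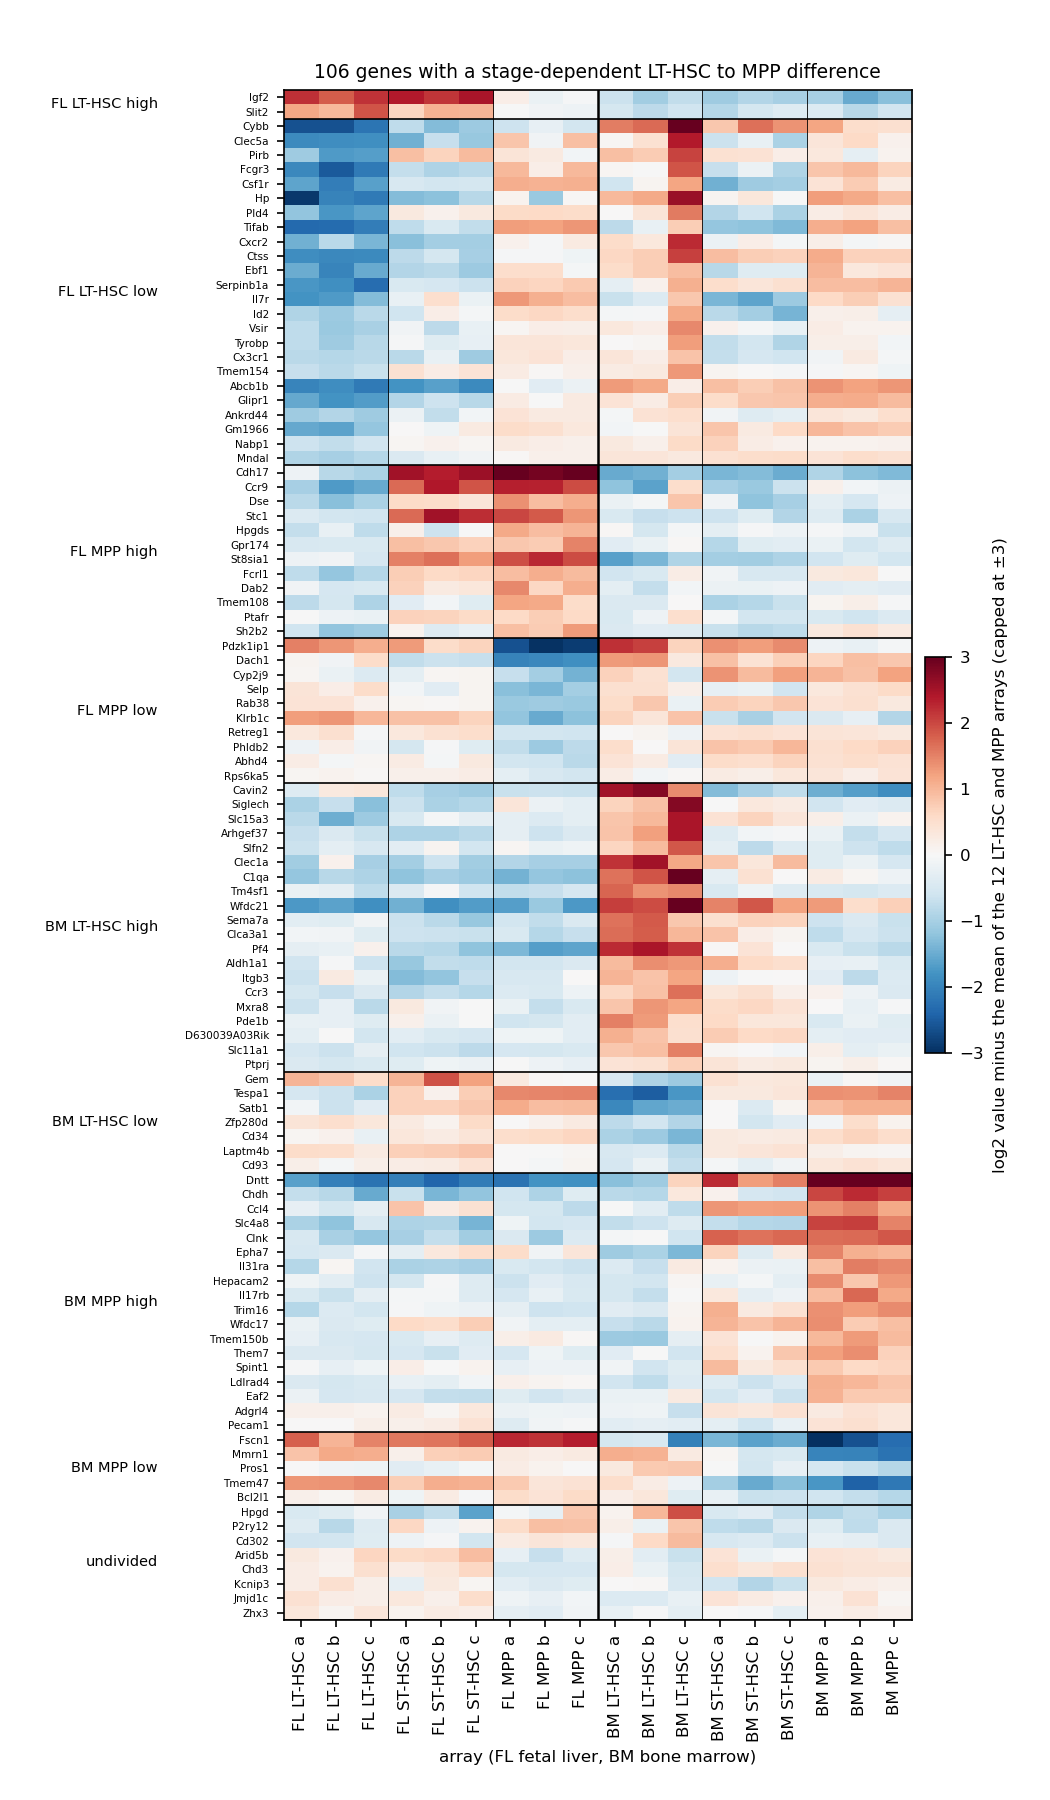
Log2 value of each of the 106 called genes (rows, grouped by class) in each of 18 arrays (columns), as the difference from the mean of the 12 LT-HSC and MPP arrays of that gene and capped at 3 in either direction. In each class but the undivided one, the values of 1 group of 3 columns lie all above or all below those of the 9 other LT-HSC and MPP columns. The ST-HSC columns entered the fit only through its estimate of the spread.

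Array BM LT-HSC c stands apart from BM LT-HSC a and b, and many results are given without it as well. Contrasts printed below only with all arrays can move too. Without it those of Slc15a3, Arhgef37, Slfn2 and Hpgd shrank to -1.66, -1.68, -1.77 and -1.90. Those of Ccr3, Rab38 and Dach1 shrank to -1.10, 1.13 and 1.57. Those of Chdh, Clec1a and Mmrn1 grew in size to 2.56, -2.38 and -2.35. All of these stayed called. The interquartile range of the log2 values of BM LT-HSC c was 2.56, against 2.93 to 3.15 in 10 of the other arrays of the contrast and 2.67 in FL LT-HSC b. The mean level of 13 neutrophil granule genes was 12.32 in BM LT-HSC c, 10.77 and 10.93 in BM LT-HSC a and b and 9.76 to 10.21 in BM MPP. B cell genes averaged 9.45 in it against 8.36 and 8.43, macrophage genes 8.45 against 7.48 and 7.54, and Cd48, a sort marker that LT-HSC lack on their surface, stood at 11.40 against 9.58 and 9.98. Other lists were lower in BM LT-HSC c than in a and b. LT-HSC-associated genes averaged 8.56 in it against 9.43 and 9.36, with 8.28 to 8.38 in BM MPP. Hox and partner genes averaged 8.04 against 8.68 and 8.62. Array FL LT-HSC c held the highest hepatocyte level, 9.04 against 7.97 and 8.02, and the highest erythroid level, 9.84 against 9.11 and 8.07. Without BM LT-HSC c the fit called 231 genes, 104 of the 106 among them; Gm1966 (adjusted p = 0.0539) and Them7 (0.0605) were lost. The part of these markers in the contrasts was not tested beyond leaving the array out. In bulk RNA, fewer cells of a type and less RNA per cell cannot be told apart.

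**Figure D3:**
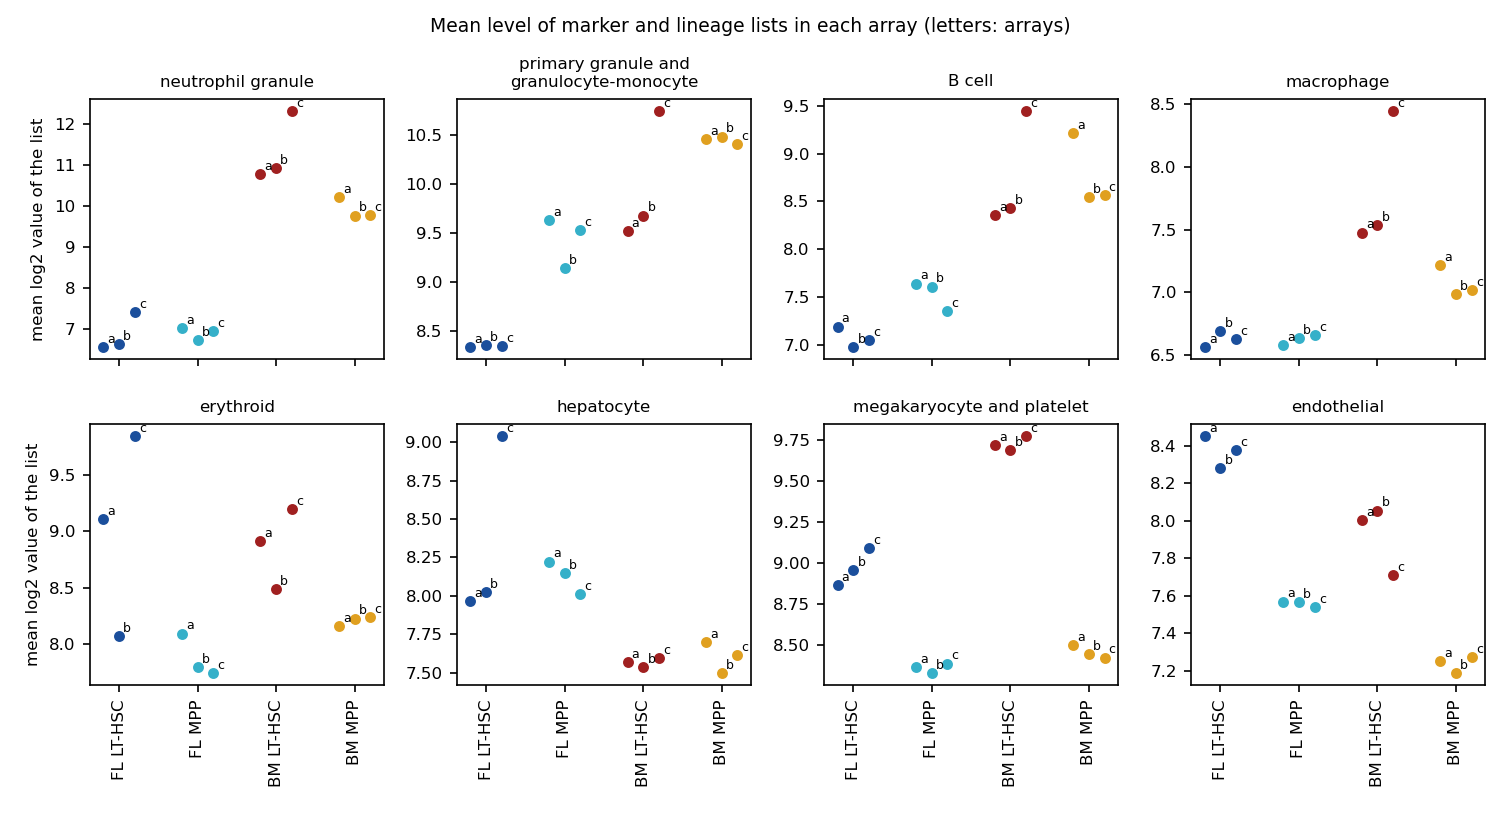
Mean log2 level of 8 marker and lineage lists in each of the 12 arrays, with 1 point per array, its letter beside it and the groups along the x axis. BM LT-HSC c is the highest array for neutrophil granule, primary granule, B cell and macrophage genes, and FL LT-HSC c for erythroid and hepatocyte genes.

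FL LT-HSC was the clear driver on the low side for 24 called genes (22.6%, against 1.69% of all genes with this class). Without BM LT-HSC c this held for 48 called genes, when 71 had BM LT-HSC as the driver on the high side. Among the 24, several with the largest contrasts are known from mature myeloid cells: Cybb encodes the catalytic subunit of the phagocyte NADPH oxidase, Clec5a a myeloid lectin receptor, Pirb an inhibitory immunoglobulin-like receptor, Fcgr3 a receptor for IgG and Csf1r the receptor for macrophage colony-stimulating factor. RefSeq promoter windows, 250 bases before to 50 after the start on GRCm38.p6, are shown for the first 4, because the promoters of many myeloid genes are known to be bound by the ETS factor PU.1. The motif searched was GAGGAA, a core of such sites, on both strands, and capitals mark it or its reverse complement TTCCTC. Cybb lies at chrX:9469275-9469574, Clec5a at chr6:40585756-40586055, Pirb at chr7:3720333-3720632 and Fcgr3 at chr1:171059354-171059653, all on the minus strand, and the sequences read 5′ to 3′ along the gene.
Cybb: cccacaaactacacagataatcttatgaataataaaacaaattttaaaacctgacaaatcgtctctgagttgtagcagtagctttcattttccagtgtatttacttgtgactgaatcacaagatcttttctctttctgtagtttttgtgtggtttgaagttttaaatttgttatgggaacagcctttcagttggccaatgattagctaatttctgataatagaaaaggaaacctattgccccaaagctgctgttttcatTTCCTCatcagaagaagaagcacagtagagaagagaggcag
Clec5a: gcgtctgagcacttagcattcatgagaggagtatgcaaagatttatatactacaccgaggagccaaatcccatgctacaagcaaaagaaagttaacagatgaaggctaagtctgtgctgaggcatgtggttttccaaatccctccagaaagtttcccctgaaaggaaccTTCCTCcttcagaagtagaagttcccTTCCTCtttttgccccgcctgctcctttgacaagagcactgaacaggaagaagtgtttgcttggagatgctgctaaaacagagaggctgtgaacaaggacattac
Pirb: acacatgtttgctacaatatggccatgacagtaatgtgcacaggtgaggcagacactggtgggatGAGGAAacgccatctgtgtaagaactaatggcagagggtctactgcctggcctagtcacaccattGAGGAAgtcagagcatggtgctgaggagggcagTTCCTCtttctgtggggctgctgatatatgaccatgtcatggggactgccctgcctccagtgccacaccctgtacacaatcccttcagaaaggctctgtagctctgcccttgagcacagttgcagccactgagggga
Fcgr3: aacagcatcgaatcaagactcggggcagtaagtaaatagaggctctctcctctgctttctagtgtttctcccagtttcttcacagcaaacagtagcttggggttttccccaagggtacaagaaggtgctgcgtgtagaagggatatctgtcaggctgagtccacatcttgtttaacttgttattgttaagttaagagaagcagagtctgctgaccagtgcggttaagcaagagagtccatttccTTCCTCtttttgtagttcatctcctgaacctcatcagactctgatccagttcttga
The motif lay in 9 of the 19 genes of this class that had a window (47.4%), in 7 of 10 (70%) with FL MPP high, in 6 of 14 (42.9%) with BM LT-HSC high, in 4 of 14 (28.6%) with BM MPP high, in 1 to 3 genes of each other class, in 34 of 83 called genes (41.0%) and in 4274 of 15691 genes tested (27.2%). It was chosen after values were seen, and a match of letters is not a binding site. Spi1, which encodes PU.1, gave a contrast of -0.21 ± 0.23 (adjusted p = 0.998).

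Cybb read 6.47, 6.48 and 6.89 in FL LT-HSC a, b and c, 8.46, 8.85 and 8.54 in FL MPP, 10.63, 10.79 and 12.50 in BM LT-HSC, and 10.26, 9.61 and 9.56 in BM MPP. FL LT-HSC was the lowest group with no overlap, and the order of stem cell and progenitor turned over between stages, with every BM LT-HSC array above every BM MPP array. The contrast was -3.50 ± 0.51 (SE, limma adjusted p = 0.0029), and -2.90 (adjusted p = 1.1e-04) without BM LT-HSC c. Pirb read 7.90, 7.26 and 7.32 in FL LT-HSC, 9.35, 9.23 and 8.88 in FL MPP, 9.88, 9.73 and 10.98 in BM LT-HSC and 9.28, 8.69 and 9.07 in BM MPP. It too was lowest in FL LT-HSC and highest in BM LT-HSC, with a contrast of -2.85 ± 0.37 (adjusted p = 0.00176) and of -2.45 without BM LT-HSC c; its sequence is close to that of the Pira genes, so the probes may not separate them.

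The values of Csf1r were 7.30, 6.81 and 7.25 in FL LT-HSC, 10.00, 9.93 and 9.96 in FL MPP, 8.30, 8.98 and 10.08 in BM LT-HSC and 9.30, 9.66 and 9.15 in BM MPP. The 3 BM LT-HSC arrays spanned the BM MPP range, while FL LT-HSC lay below every other array, and the contrast was -2.59 ± 0.41 (adjusted p = 0.00578) and -2.11 without BM LT-HSC c. Fcgr3 gave -2.73 ± 0.51 (adjusted p = 0.0169) and Clec5a -3.03 ± 0.59 (adjusted p = 0.0221). In the 12 fits that each left out 1 array, Fcgr3 was called in 9, with an adjusted p of up to 0.0613 without FL MPP c, and Clec5a in 5, up to 0.0755 without BM MPP c. Without BM LT-HSC c both were called, at -2.11 and -2.32. Hp, which encodes the hemoglobin-binding protein haptoglobin, gave -2.49 ± 0.51 and Cxcr2, a chemokine receptor of neutrophils, -2.31 ± 0.46; these were called in 5 and 4 of the 12 fits, with an adjusted p of up to 0.104 without BM MPP c and 0.0843 without FL LT-HSC a.

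The class was not only myeloid. Ebf1, the transcription factor that commits cells to the B lineage, read 8.0, 7.51 and 7.98 in FL LT-HSC, 10.02, 10.01 and 9.42 in FL MPP, 10.04, 10.22 and 10.40 in BM LT-HSC and 10.50, 9.80 and 9.90 in BM MPP. The other groups overlapped and FL LT-HSC lay below them, with a contrast of -2.14 ± 0.29 (adjusted p = 0.00237); leaving out BM LT-HSC c gave -2.05. Ctss, a lysosomal protease of antigen presentation, read 6.93, 6.85 and 6.87 in FL LT-HSC, 8.65 to 8.76 in FL MPP, 9.42, 9.52 and 10.84 in BM LT-HSC and 9.47 to 9.91 in BM MPP, with a contrast of -2.15 ± 0.37 (adjusted p = 0.00824). Il7r, the interleukin 7 receptor of early lymphoid cells, gave -1.99 ± 0.41 (adjusted p = 0.0287) with 6.15, 6.23 and 6.64 in FL LT-HSC against 8.85 to 9.23 in FL MPP. It was called in 4 of the 12 fits that left out 1 array, with an adjusted p of up to 0.0952 without BM MPP c. The remaining 14 genes of the class, among them Id2, Tyrobp, Cx3cr1 and Abcb1b, had contrasts from -2.46 for Pld4 to -0.90 for Mndal.

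For 16 of these 24 genes the highest of the 12 arrays was BM LT-HSC c, against 18.6% of all genes. Without that array 23 of the 24 were called, and 23 fell in the same class. Without it the contrasts of Hp and Cxcr2 were -1.98 and -1.71, and those of Ctss and Il7r -1.69 and -1.54, all called. All 12 fits that left out 1 array called 11 of the 24.

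In FL LT-HSC 2 called genes were high (1.89%, against 1.26% of all genes, a share near the background), and both encode secreted ligands. Igf2, an imprinted growth factor of the fetus, read 11.99, 11.61 and 11.96 in FL LT-HSC, 9.99, 9.59 and 9.76 in FL MPP, 9.15, 8.75 and 9.04 in BM LT-HSC and 8.79, 8.28 and 8.53 in BM MPP. FL MPP lay between FL LT-HSC and BM without overlap, and the contrast was 1.62 ± 0.23 (adjusted p = 0.00237). Slit2, a ligand of the Robo receptors, read 8.97, 8.78 and 9.71 in FL LT-HSC, 7.66 to 7.81 in FL MPP, 7.03 to 7.28 in BM LT-HSC and 6.98 to 7.40 in BM MPP. Its contrast was 1.46 ± 0.28 (adjusted p = 0.0213), and 1.19 without FL LT-HSC c, its highest array; it was called in 8 of the 12 fits, with an adjusted p of up to 0.0678 without BM MPP c.

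In FL MPP 12 called genes were high (11.3%, against 4.18% of all genes). Cdh17, a cadherin best known from intestine and liver, read 9.70, 9.43 and 9.93 in FL MPP, 6.42, 5.73 and 5.61 in FL LT-HSC, 5.05, 5.12 and 5.54 in BM LT-HSC and 5.66, 5.33 and 5.23 in BM MPP. Both BM groups stayed at a low level, and the contrast, -3.59 ± 0.28, had the smallest adjusted p of all genes (3.53e-06). Ccr9, the chemokine receptor that draws progenitors to the thymus, read 9.91, 9.87 and 9.52 in FL MPP, 6.56, 5.87 and 6.05 in FL LT-HSC, 6.37, 5.96 and 8.10 in BM LT-HSC and 7.71, 7.47 and 7.40 in BM MPP. BM LT-HSC c was the only stem cell array above BM MPP; the contrast was -2.89 ± 0.52 (adjusted p = 0.0124) with it and -2.24 (adjusted p = 6.6e-04) without it. Stc1, which encodes the secreted glycoprotein stanniocalcin 1, read 9.63, 9.47 and 8.95 in FL MPP and between 6.68 and 7.25 in the other 9 arrays, with a contrast of -2.26 ± 0.30 (adjusted p = 0.00176).

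Enzymes and receptors made up the rest of the named genes of this class. Dse, an epimerase of dermatan sulfate synthesis, gave -2.65 ± 0.37 with 8.81, 8.36 and 8.52 in FL MPP, and -2.33 without BM LT-HSC c, which at 8.27 came close to FL MPP. Hpgds, the hematopoietic prostaglandin D synthase, gave -1.70 ± 0.30, and Gpr174, a receptor for lysophosphatidylserine, -1.69 ± 0.26 at low levels throughout, with 5.45, 5.40 and 6.14 in FL MPP and 4.09 to 4.67 elsewhere. All 6 named genes of the class were called in each of the 12 fits that left out 1 array, as were 9 of the 12 members. The other 6 were St8sia1, Fcrl1, Dab2, Tmem108, Ptafr and Sh2b2, with contrasts from -1.50 to -1.21.

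In FL MPP 10 called genes were low (9.43%, against 1.72% of all genes). Pdzk1ip1, a small membrane protein whose gene is used to mark stem cells, read 11.13, 10.95 and 10.72 in FL LT-HSC, 7.0, 6.66 and 6.78 in FL MPP, 11.82, 11.67 and 10.29 in BM LT-HSC and 9.48, 9.41 and 9.57 in BM MPP. It was lower in MPP than in LT-HSC in both stages, by more in FL, with a contrast of 2.34 ± 0.40 (adjusted p = 0.00849) and of 1.86 without BM LT-HSC c, its lowest BM LT-HSC array. Selp, which encodes the adhesion molecule P-selectin, read 8.90, 8.79 and 9.15 in FL MPP and between 10.34 and 10.74 in the other 9 arrays, with a contrast of 1.66 ± 0.22 (adjusted p = 0.00176). Dach1, a transcriptional cofactor, read 6.94, 7.02 and 7.11 in FL MPP, 9.03, 8.85 and 9.50 in FL LT-HSC, 10.23, 10.28 and 9.24 in BM LT-HSC and 9.59, 9.84 and 9.76 in BM MPP, with a contrast of 1.91 ± 0.31 (adjusted p = 0.00682).

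Rab38, a small GTPase of vesicle traffic, was likewise at 9.55 to 9.61 in FL MPP and at 10.48 to 11.48 elsewhere, with a contrast of 1.42 ± 0.25. Klrb1c, which encodes the NK1.1 receptor of natural killer cells and has close relatives in its family, gave 1.35 ± 0.25, and Cyp2j9, a cytochrome P450, 1.71 ± 0.36. Klrb1c was called in 10 of the 12 fits, with an adjusted p of up to 0.0514 without BM MPP b, and Cyp2j9 in 4, up to 0.12 without BM MPP c. Retreg1, Phldb2, Abhd4 and Rps6ka5 completed the class with contrasts from 1.18 to 0.77.

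In BM LT-HSC 20 called genes were high (18.9%, against 1.88% of all genes), with Cavin2, Pf4 and Itgb3 of the megakaryocyte and platelet list among them. Cavin2, a coat protein of caveolae that platelets also carry, read 9.58, 9.81 and 8.49 in BM LT-HSC, 6.67, 7.36 and 7.41 in FL LT-HSC, 6.40, 6.41 and 6.39 in FL MPP and 5.61, 5.40 and 5.20 in BM MPP. It was higher in LT-HSC than in MPP in both stages, by more in BM, with a contrast of -3.15 ± 0.37 (adjusted p = 8.93e-04) and of -3.55 without BM LT-HSC c. Pf4, the platelet chemokine, read 12.03, 12.25 and 11.96 in BM LT-HSC, 9.52, 9.58 and 9.92 in FL LT-HSC, 8.45, 8.15 and 8.20 in FL MPP and 9.34, 9.13 and 8.98 in BM MPP, with a contrast of -1.53 ± 0.22 (adjusted p = 0.00323). Without BM LT-HSC c, whose value lay close to those of a and b, the contrast was -1.59. Itgb3, the platelet integrin chain, belonged to the same class with -1.41 ± 0.30 (adjusted p = 0.0416), but was called in only 3 of the 12 fits that left out 1 array, with an adjusted p of up to 0.145 without BM MPP b.

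Of 20 measured genes of the megakaryocyte and platelet list, 4 were called lower (Cavin2, Mmrn1, Pf4 and Itgb3), 1 higher (Selp) and 15 did not pass, beside a share of 0.543% called over all genes. The median contrast of the list was -0.52, and -0.55 without BM LT-HSC c, when 6 were called lower. Vwf, the von Willebrand factor gene, had a contrast of -1.09 ± 0.28 that did not pass (adjusted p = 0.115), with 9.67, 9.70 and 8.74 in BM LT-HSC against 8.04 to 8.42 in FL LT-HSC. The list mean was 9.69 to 9.77 in BM LT-HSC, 8.87 to 9.09 in FL LT-HSC and 8.33 to 8.50 in both MPP groups. LT-HSC lay above MPP in both stages with no overlap.

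Siglech, a lectin of plasmacytoid dendritic cells, read 8.47, 8.67 and 10.54 in BM LT-HSC against 6.55 to 8.16 in the other groups, with a contrast of -2.79 ± 0.51 (adjusted p = 0.0124) and of -2.13 (adjusted p = 2.6e-04) without BM LT-HSC c. C1qa, a chain of complement C1q made by macrophages, read 8.81, 9.06 and 10.17 in BM LT-HSC, 7.41, 7.24 and 7.02 in BM MPP and 5.75 to 6.35 in both FL groups. Its contrast was -1.82 ± 0.36 (adjusted p = 0.0258) and -1.41 without that array, and it was called in 5 of the 12 fits, with an adjusted p of up to 0.091 without BM MPP c. C1qb and C1qc, which encode the other chains, had -0.13 ± 0.26 (adjusted p = 0.998) and -0.65 ± 0.32 (adjusted p = 0.773) and did not pass. Slc15a3, a lysosomal peptide transporter, gave -2.18 ± 0.41, and was called in 8 of 12 fits with an adjusted p of up to 0.072 without BM MPP b. Slfn2, a Schlafen gene of immune cells, gave -2.12 ± 0.34 and Arhgef37, a guanine nucleotide exchange factor, -2.15 ± 0.38; both were called in all 12.

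Clca3a1, a chloride channel accessory protein, was lower in BM LT-HSC c than in a and b, unlike the macrophage genes. It read 9.93, 10.06 and 9.24 in BM LT-HSC and 7.38 to 8.16 in the other 9 arrays, with a contrast of -1.66 ± 0.29 (adjusted p = 0.0112) and of -1.91 without BM LT-HSC c. Clec1a, a C-type lectin of endothelial and myeloid cells, gave -1.98 ± 0.43 (adjusted p = 0.0443) but was called in only 2 of the 12 fits, with an adjusted p of up to 0.135 without BM MPP c. Ccr3, the eotaxin receptor, gave -1.40 ± 0.29 and was called in 4, up to 0.121 without BM MPP c. In 10 of the 20 genes BM LT-HSC c was the highest of the 12 arrays. All 20 were called without it, and all in the same class.

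**Figure D4:**
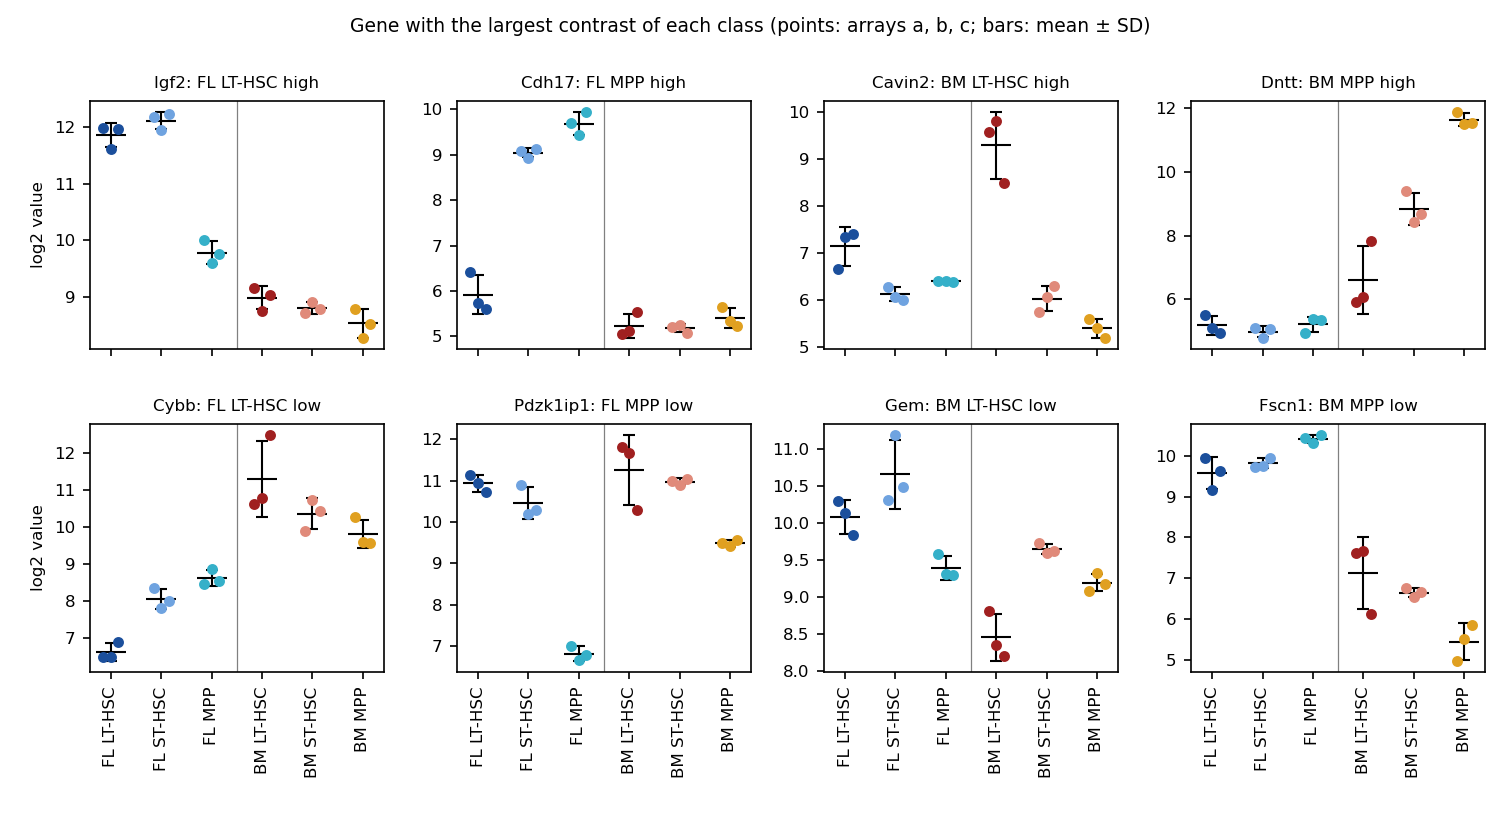
Log2 values of the gene with the largest contrast in each of 8 classes, with 1 point per array a, b and c and bars for the mean ± SD of 3 arrays; the grey line separates fetal liver from bone marrow. Each gene has 1 group among LT-HSC and MPP whose 3 arrays lie outside the 9 others, such as BM MPP for Dntt and FL MPP for Pdzk1ip1. For Fscn1 the highest BM MPP array (5.86) lies just below BM LT-HSC c (6.13), and both FL groups lie at 9.16 to 10.50. The y axes differ between panels and do not start at 0.

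In BM LT-HSC 7 called genes were low (6.6%, against 3.35% of all genes). Cd34, a sialomucin that adult LT-HSC are known to lack and fetal ones to carry, read 10.79, 10.63 and 10.34 in BM LT-HSC, 11.78, 11.86 and 11.51 in FL LT-HSC, 12.24, 12.30 and 12.37 in FL MPP and 12.26, 12.38 and 12.24 in BM MPP. The MPP groups overlapped, and the contrast was 1.12 ± 0.18 (adjusted p = 0.00578). Satb1, a chromatin organizer of lymphoid progenitors, read 7.57, 7.95 and 8.01 in BM LT-HSC, 9.41, 8.86 and 9.16 in FL LT-HSC, and 10.42 to 10.60 in both MPP groups, with a contrast of 1.33 ± 0.22 (adjusted p = 0.00794). Tespa1, an adaptor of T cell receptor signalling, had the same shape, with 7.96, 7.76 and 8.48 in BM LT-HSC, 9.27 to 9.72 in FL LT-HSC and 11.57 to 11.73 in MPP of both stages, and a contrast of 1.41 ± 0.25 (adjusted p = 0.0114).

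In these 3 genes the MPP level was shared by both stages and the stem cell level was not. Laptm4b, a lysosomal membrane protein, had the opposite order in FL, with 11.75, 11.73 and 11.46 in FL LT-HSC above 11.19 to 11.24 in FL MPP, but 10.71, 10.78 and 10.38 in BM LT-HSC below 11.24 to 11.36 in BM MPP, and a contrast of 1.10 ± 0.17 (adjusted p = 0.00553). Gem, a Ras-like GTPase, gave 1.43 ± 0.28 and Zfp280d, a zinc finger gene, 1.19 ± 0.24; they were called in 6 and 4 of the 12 fits, with an adjusted p of up to 0.083 without FL LT-HSC a and 0.0929 without FL MPP a. Cd93, the last of the class, gave 0.94. In 5 of the 7 genes BM LT-HSC c was the lowest of the 12 arrays, against 23.7% of all genes. All 7 were called without it, but only 6 in the same class. Gem then had FL LT-HSC as its driver on the high side.

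In BM MPP 18 called genes were high (17%, against 1.95% of all genes). Dntt, the terminal transferase that adds bases at antigen receptor joints in early lymphoid cells, had the largest contrast of all. It read 11.87, 11.51 and 11.52 in BM MPP, 5.91, 6.09 and 7.83 in BM LT-HSC, 5.52, 5.10 and 4.95 in FL LT-HSC and 4.94, 5.37 and 5.34 in FL MPP. The FL groups overlapped at a low level, and the contrast was 5.0 ± 0.51 (adjusted p = 1.46e-04) and 5.61 without BM LT-HSC c. Flt3, the cytokine receptor of lymphoid-primed progenitors, was also highest in BM MPP: it read 9.37 to 9.52 in FL MPP and 10.06 to 10.16 in BM MPP against 7.46 to 7.51 and 7.0 to 7.44 in LT-HSC, with a contrast of 0.93 ± 0.21 that did not pass (adjusted p = 0.0624).

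Ccl4, a chemokine, read 10.62, 10.79 and 10.41 in BM MPP and 8.48 to 9.25 in the other 9 arrays, with a contrast of 1.97 ± 0.25 (adjusted p = 0.00176). Slc4a8, a sodium-dependent bicarbonate transporter, read 10.67, 10.71 and 10.13 in BM MPP and 7.44 to 8.52 elsewhere, with 1.94 ± 0.28 (adjusted p = 0.0029). Clnk, an adaptor of immunoreceptor signalling, read 9.45, 9.48 and 9.64 in BM MPP and 6.61 to 7.75 elsewhere, with 1.76 ± 0.28 (adjusted p = 0.00598). All 3 were called in each fit that left out 1 array. Chdh, the choline dehydrogenase, gave 2.17 ± 0.41 and Epha7, an ephrin receptor, 1.71 ± 0.36; they were called in 9 and 4 of the 12 fits, with an adjusted p of up to 0.0674 without BM MPP b and 0.114 without FL MPP b. Pecam1, an adhesion molecule of endothelial and blood cells, gave 0.95 ± 0.18 (adjusted p = 0.0217) and was called in 8, up to 0.0725 without BM MPP b. The other 11 genes, from Il31ra (1.66) to Adgrl4 (0.97), lay between these.

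In BM MPP 5 called genes were low (4.72%, against 1.01% of all genes). Fscn1, the actin-bundling protein fascin, read 4.99, 5.52 and 5.86 in BM MPP, 7.63, 7.66 and 6.13 in BM LT-HSC, 9.94, 9.16 and 9.63 in FL LT-HSC and 10.42, 10.31 and 10.50 in FL MPP. The stage difference was present in both populations and larger in MPP, with a contrast of -2.52 ± 0.44 (adjusted p = 0.0102) and of -3.02 (adjusted p = 3.2e-05) without BM LT-HSC c. Mmrn1, the platelet and endothelial protein multimerin 1, read 8.67, 8.65 and 8.46 in BM MPP and 10.85 to 11.81 in the other 9 arrays, with a contrast of -2.08 ± 0.30 (adjusted p = 0.0029). Pros1, which encodes the anticoagulant protein S, gave -1.48 ± 0.22 and was called in all 12 fits. Tmem47, a junction protein, gave -1.46 ± 0.27 and was called in 9, with an adjusted p of up to 0.0596 without BM MPP b, and Bcl2l1, the survival factor Bcl-xL, gave -1.15 ± 0.24 and was called in only 1, that without BM LT-HSC c.

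In 8 called genes no single group stood apart, and in all of them the LT-HSC to MPP difference had opposite signs in the 2 stages. Without BM LT-HSC c all 8 were called, but only 3 stayed without a clear driver: Cd302, Arid5b and Zhx3. Chd3 and Kcnip3 then had FL MPP as driver on the low side and P2ry12 had it on the high side. Hpgd then had BM MPP and Jmjd1c BM LT-HSC as driver on the low side. The layouts below are those with all arrays. Cd302, a C-type lectin, read 6.42, 6.44 and 6.63 in FL LT-HSC, 7.24, 7.37 and 7.33 in FL MPP, 6.98, 7.60 and 7.94 in BM LT-HSC and 6.78, 6.72 and 6.57 in BM MPP. FL MPP and BM LT-HSC were the higher groups, and the contrast was -1.63 ± 0.27 (adjusted p = 0.00641) and -1.41 without BM LT-HSC c. P2ry12, the ADP receptor of platelets and microglia, had the same layout with -2.09 ± 0.34 (adjusted p = 0.00595). Chd3, a chromatin remodeller of the NuRD complex, had the reverse one: it read 9.65, 9.54 and 9.91 in FL LT-HSC, 8.91, 8.91 and 8.93 in FL MPP, 9.63, 9.22 and 8.89 in BM LT-HSC and 9.89, 9.82 and 9.80 in BM MPP, with 1.37 ± 0.23 (adjusted p = 0.00684). These 3 were called in all 12 fits. Hpgd, the enzyme that degrades prostaglandins, gave -2.36 ± 0.48, Arid5b 1.41 ± 0.29, Kcnip3 1.03 ± 0.22, Jmjd1c 0.98 ± 0.19 and Zhx3 0.83 ± 0.17. They were called in 4, 4, 3, 8 and 4 of the 12 fits, with an adjusted p of up to 0.0958 for Hpgd without FL MPP c and, without FL MPP b, 0.107 for Arid5b, 0.123 for Kcnip3, 0.0751 for Jmjd1c and 0.11 for Zhx3.

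The short-term stem cells (ST-HSC), sorted from the same 2 stages with 3 arrays each, are not terms of the contrast and entered its fit only through the estimate of the spread. They show how far a stage difference reached into the population between LT-HSC and MPP. Of the 106 called genes, 62 differed between FL ST-HSC and BM ST-HSC at an adjusted p under 0.05, against 18.7% of all genes (12.1% higher in FL and 6.52% lower). Both tests used the same estimate of the spread of a gene, so choosing genes by the contrast favours genes that pass here too. The excess over all genes, here and in the classes, is therefore no separate result. Genes with FL MPP high were mostly higher in FL ST-HSC too, in 11 of 12 with none lower. Of the 20 genes with BM LT-HSC high, 12 were lower in FL ST-HSC and none higher. Of the 24 with FL LT-HSC low, 9 were lower and 3 higher. Of the 18 with BM MPP high, 7 were lower and 1 higher.

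Cdh17 read 9.09, 8.93 and 9.12 in FL ST-HSC against 5.20, 5.26 and 5.09 in BM ST-HSC, close to the FL MPP level. Dntt read 9.40, 8.42 and 8.67 in BM ST-HSC, between BM LT-HSC and BM MPP, and 4.79 to 5.10 in FL ST-HSC. Clnk at 9.41 to 9.55 in BM ST-HSC had reached the BM MPP level, whereas Slc4a8 at 7.78 to 7.93 had not left that of BM LT-HSC. Igf2 at 11.94 to 12.23 in FL ST-HSC was as high as in FL LT-HSC. Pirb at 9.64 to 9.92 in FL ST-HSC lay above FL MPP, although FL LT-HSC was its lowest group, and did not differ between the ST-HSC groups at this threshold (0.49, adjusted p = 0.19). Cavin2 was at 6.00 to 6.29 in FL ST-HSC and 5.75 to 6.29 in BM ST-HSC, below all 3 BM LT-HSC arrays.

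Gene lists chosen for blood stem cells give the wider setting. Of 18 genes of lymphoid priming, Dntt and Satb1 were called higher, Ccr9 and Il7r lower, and 14 did not pass; the 4 belong to 4 different classes, and the list median was -0.08. Of 27 LT-HSC-associated genes, Pdzk1ip1 was called higher and Clca3a1 lower, with a median of 0.19 that was -0.21 without BM LT-HSC c. Mecom, a transcription factor of stem cells, had 1.21 ± 0.37 and did not pass (adjusted p = 0.247). Of 19 cytokine receptors, 2 were called lower, Csf1r and Il7r. Without BM LT-HSC c, 1 cytokine receptor was called higher and 2 lower, and 2 LT-HSC-associated genes were called higher and 2 lower. Of 20 primary granule and granulocyte-monocyte genes, 1 was called lower (Fcgr3), with a median of -0.38 that was 0.02 without BM LT-HSC c.

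Programs of cell growth and the interferon response gave no call with all arrays. None of 34 S phase genes, 35 G2M genes, 20 cyclin-dependent kinase inhibitor and quiescence genes, 23 ribosome biogenesis genes, 25 oxidative phosphorylation genes or 37 interferon response genes passed limma's test. At an unadjusted p under 0.05, as held by 6.85% of all genes, there were 4, 0, 3, 0, 0 and 8 of them. The 8 interferon response genes were 3 higher and 5 lower. Without BM LT-HSC c, 1 gene of that list was called lower. Among 32 immediate early genes none passed and 7 had an unadjusted p under 0.05, all higher. Nr4a1, an orphan nuclear receptor induced by stimuli, was the largest of these at 1.87 ± 0.52 (adjusted p = 0.167), with 11.10, 9.42 and 8.66 in BM LT-HSC, 11.31 to 11.75 in BM MPP and 8.11 to 8.34 in both FL groups. The median of the immediate early list was 0.31, and 0.08 without BM LT-HSC c. The list mean was 9.95, 9.46 and 9.17 in BM LT-HSC a, b and c. Of 18 antigen presentation genes 1 was called lower, Ctss, and of 22 homing and adhesion genes 1, Ccr9. Without BM LT-HSC c, 2 antigen presentation genes were called higher and 2 lower, and 3 homing and adhesion genes were called lower. None of 17 Hox and partner genes, 22 glycolysis and hypoxia genes or 19 sterol and fatty acid genes passed, with 2, 3 and 1 at an unadjusted p under 0.05. Of 19 fetal and imprinted genes 1 was called, Igf2. Without BM LT-HSC c, 2 genes of this list were called higher and 2 lower, and 1 glycolysis and hypoxia gene was called higher. Lin28b, which marks fetal blood formation, had -1.01 ± 0.37 and did not pass (adjusted p = 0.413).

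Markers of mature cells were compared in the same contrast. Of 13 neutrophil granule genes 1 was called lower (Cxcr2) and 12 did not pass, yet 10 had a negative contrast at an unadjusted p under 0.05 (3.69% of all genes); their median was -1.51, and -0.85 without BM LT-HSC c. Their mean level was 6.54 to 7.41 in FL LT-HSC and 6.72 to 7.02 in FL MPP, against 10.77 to 12.32 in BM LT-HSC and 9.76 to 10.21 in BM MPP. Of 17 macrophage genes 2 were called lower (C1qa and Csf1r), with a median of -0.60 and of -0.37 without BM LT-HSC c, and of 14 B cell genes 1 (Ebf1), with medians of -0.52 and -0.22. Without that array 2 neutrophil granule genes were called lower, and 1 B cell gene was called higher and 1 lower. No erythroid gene of 13 and no hepatocyte gene of 18 passed limma's test, with 0 and 1 at an unadjusted p under 0.05. Their medians were 0.36 and 0.25. Klrb1c was called higher among 13 T and NK cell genes, Ccr3 lower among 16 mast cell, basophil and eosinophil genes and Pecam1 higher among 17 endothelial genes, and none of 17 stromal genes passed, with 2 at an unadjusted p under 0.05. The part of these cells in the contrasts was not tested beyond leaving out arrays.

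The sort markers separated the populations in both stages. Slamf1, which encodes Cd150, was at 9.12 to 9.95 in LT-HSC and 6.43 to 7.42 in MPP, with a contrast of 0.19 ± 0.26 (adjusted p = 0.998), and Kit gave 0.18 ± 0.17 (adjusted p = 0.998). Cd48 was at 12.19 to 12.35 in MPP and at 9.57 to 9.99 in LT-HSC but for BM LT-HSC c, with a contrast of -0.62 ± 0.43 (adjusted p = 0.986) and of -0.09 without that array. Ly6a, which encodes Sca-1, was not analysed here.

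**Figure D5:**
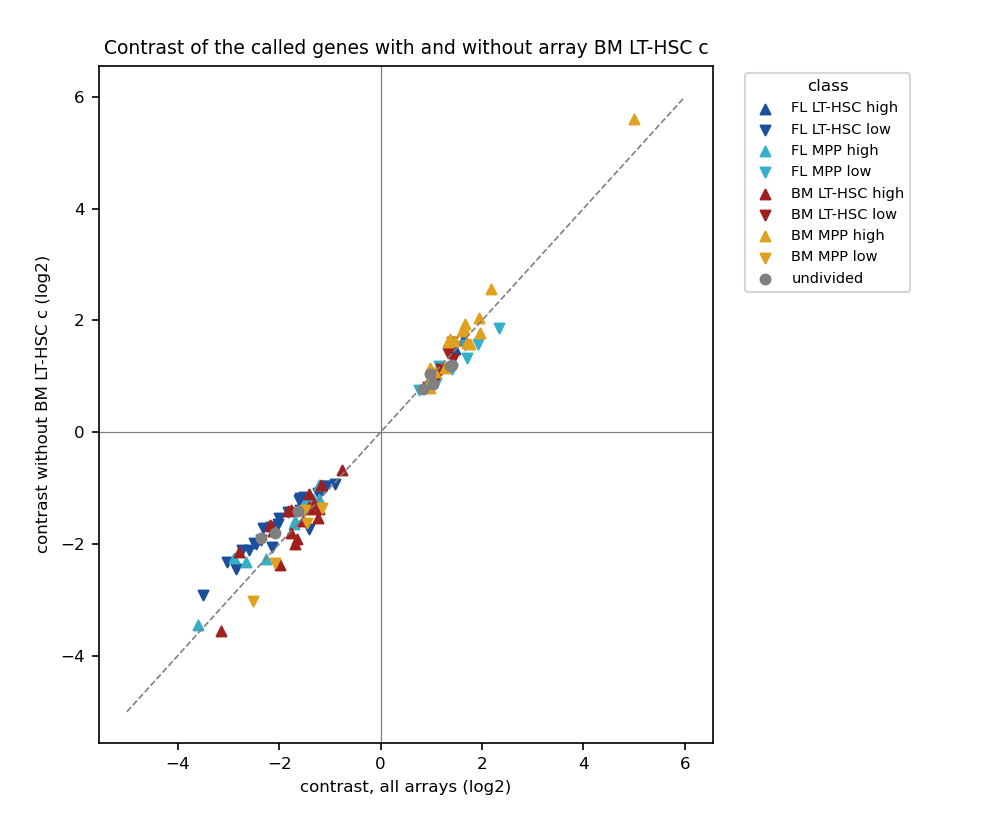
Contrast of the 106 called genes on the log2 scale, with all arrays on the x axis and without array BM LT-HSC c on the y axis, coloured by class; the dashed line marks equal values. All 106 keep their sign; the largest negative contrasts with FL LT-HSC low come nearer to 0, and Dntt, Cavin2 and Fscn1 move away from it.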

How the data were processed

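Total RNA was measured on Affymetrix Clariom S arrays, with 2 ng of RNA labelled by the GeneChip Pico kit after 10 PCR cycles, per the labels' protocols. Each probe set has a deposited log2 signal, from R 3.5.01 and oligo per the submitters' processing notes; for background correction, normalization and filters the method is not given in the sources.

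Of 22203 probe sets, 19572 carried 1 gene symbol, all matched to RefSeq GRCm38.p6; 67 probe sets with a lower mean than another of their gene were set aside, which left 19505 genes. The means of 6 groups were fitted by limma 3.58.1 (lmFit, eBayes; R 4.3.3) to all 18 arrays, with 12 residual degrees of freedom and Benjamini-Hochberg adjustment over all genes. Errors are SE of this fit, whose precision the number of arrays limits. The fit was tested on simulated data in which all groups shared the same spread for a gene. That setting does not cover genes such as Cybb, with an SD of 1.04 in BM LT-HSC and 0.21 to 0.39 in the other LT-HSC and MPP groups.

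The contrast, the driver rule, 28 gene lists and all comparisons were chosen with earlier results of these data known. Named are up to 6 genes per class and 8 without a clear driver by size of contrast, up to 4 called members of a list, those behind list counts of at most 5, and all sort markers. Vwf, Mecom, Nr4a1, Lin28b, C1qb, C1qc, Spi1 and the Y-linked genes were named after their values were seen, as were the genes at the threshold and the smallest or largest of each class's remaining members.

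Same-lettered arrays of different groups had deviations that correlated at -0.38 to 0.24, median -0.05, over 18 pairs. Differently lettered pairs ranged from -0.38 to 0.47. No pairing by letter was seen. Differences between single arrays enter these correlations, so they cannot tell whether same-lettered arrays share a sort. Alternatives left out each array, the narrow arrays, both c arrays of LT-HSC or those described as sgEzh2, and changed the scaling, probe sets, filter, weights, variance model, arrays fitted, block, fold and driver rule.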

Additional observations from a re-analysis of the deposited data

Results flagged for a closer look

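Of 19505 genes, 106 had an LT-HSC to MPP difference that itself differed between FL and BM by limma's interaction contrast, and the results above describe them. In 4 of these genes the difference was called in both stages and in opposite directions. The contrast was -3.50 for Cybb and -2.85 for Pirb, which were lower in LT-HSC than in MPP in FL and higher in BM. Cd302 had -1.63 with the same order, and Chd3 had 1.37 with the reverse order. Without array BM LT-HSC c the 4 contrasts were -2.90, -2.45, -1.41 and 1.19.

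Outside the named genes, 12 of the 2631 probe sets without a single gene symbol passed in a fit over all probe sets, 4 higher and 8 lower. They carry no gene name here.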

How the results depend on the processing

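The count of called genes depended on single arrays. Leaving out 1 array at a time gave 61 to 231 called genes, with 20 to 75 higher and 38 to 156 lower. It was 66, 68 and 64 without FL MPP a, b and c, 61 and 62 without BM MPP b and c, and 231 without BM LT-HSC c. Over these fits FL LT-HSC drove 15 to 55 genes, FL MPP 15 to 35, BM LT-HSC 14 to 86 and BM MPP 11 to 48, with 3 to 13 undivided. Opposite signs were seen in 27 to 109, a called ST-HSC stage difference in 33 to 155, and 12 to 29 list members were called.

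Other settings are given as called genes (higher, lower), then drivers in the order FL LT-HSC, FL MPP, BM LT-HSC and BM MPP. Array weights gave 334 (121, 213), drivers 83, 45, 92 and 55 with 59 undivided, 175 with opposite signs, 230 with an ST-HSC difference and 34 list members. A fit of only the 12 arrays gave 54 (23, 31), drivers 15, 10, 13 and 13 with 3 undivided, and 25 with opposite signs. That fit without BM LT-HSC c, chosen after seeing the data, gave 262 (92, 170), drivers 64, 38, 94 and 57, 121 with opposite signs and 28 list members. Without both LT-HSC c arrays there were 197, of which 138 were lower, drivers 53, 76 and 37 for all but FL MPP with 5 undivided, 91 with opposite signs and 130 with an ST-HSC difference. Without the narrow arrays (BM LT-HSC c, FL LT-HSC b, BM ST-HSC b and c) there were 306 (119, 187), drivers 88, 41, 113 and 55, 155 with opposite signs, 132 with an ST-HSC difference and 31 list members. With FL MPP c as the lone FL MPP array and FL LT-HSC a out too (no sgEzh2 arrays; the lone array is assumed to vary like the others), limma called 3 (0, 3; at an unadjusted p under 0.05, 290 and 412), all 3 driven by FL MPP with 0 for the other drivers and 0 undivided, 1 with opposite signs, 2 with an ST-HSC difference and 0 list members. With no separation required 0 genes were undivided. The cause of these changes was not tested.

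With the letters as a replicate block, fixed or random, 99 or 105 genes were called; 1 of 12 arrays correlated best with its own letter. Scaling, probe set, filter and variance settings gave 106 to 125 calls, and scaling moved the median contrast by at most 0.02. Over 65 named genes and 27 settings, 1474 of 1751 contrasts kept direction and call, 265 lost the call, 6 gained it and 6 changed sign. The sign changed in genes not called: Slamf1 without BM LT-HSC c (-0.037, also with only the 12 arrays, and up to 0.34 in the other fits that left out 1 array), without both c arrays (-0.055), without the narrow arrays (-0.118) and with array weights (-0.073), and Cd48 without both c arrays (0.021).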
